A study of Mus musculus with 3 samples.

Results

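The subunits of the nuclear RNA polymerases, the TATA-binding protein (TBP) and its relatives, the TBP-associated factors (TAFs) and the general factors TFIIA, TFIIB, TFIIE, TFIIF and TFIIH were followed in mouse embryonic stem cells. Members were chosen by gene symbol: every gene named Polr1, Polr2 or Polr3 with a letter, Taf with a number, Tbp, Tbpl1, Tbpl2, or Gtf2 with a, b, e, f or h, provided that the annotation gave it a protein-coding transcript. The rule took 63 of the 55536 genes measured and used no measured value. Of the 63, 28 encode polymerase subunits, 3 belong to the TBP family, 20 carry a Taf symbol and 12 encode the other factors. Subunits filed under other symbols, such as those of the TFIIH kinase, fell outside the rule and are given as a neighbouring set below.

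RNA-seq of total RNA was available for 3 libraries of F121-9, a line of ES cells from a cross of the Cast and 129 strains. The libraries were named biological replicates 1, 2 and 3 at passage 14, and each was made from 400 ng of RNA with ERCC and SIRV spike-in RNAs. They form a single group of 1 cell line with no treatment, so no comparison between conditions exists. Separate cultures are not stated, and p-values therefore measure only the spread between these samples, which may be technical. The gene tables held 10425623, 9575747 and 9974983 estimated counts in replicates 1, 2 and 3, and the 63 genes took 0.517%, 0.520% and 0.518% of them. All 6 ES cell markers were at 1 TPM or more (transcripts per length, scaled to a fixed sum in each library) in every library, with a summed level of 1844 to 2128 TPM. None of 6 fibroblast markers, which would mark feeder cells, reached 1 TPM in every library. Their sum was 1.39 to 2.36 TPM, and Col3a1, Dcn and Lum had no counts. Thy1 had the highest mean, with 1.4, 1.34 and 0.43 TPM in replicates 1, 2 and 3. Of 4 markers each, trophoblast (sum 1.91 to 2.22 TPM) and mesoderm (4.49 to 7.68) had 1 expressed, endoderm (3.41 to 4.42) had 2, and neuroectoderm (10.1 to 13.1) had 1, Tubb3. In bulk RNA, fewer cells of a type and less RNA per cell cannot be told apart.

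RNA polymerase I makes the large ribosomal RNA, polymerase II makes messenger RNA, and polymerase III makes transfer RNA, 5S ribosomal RNA and other small RNAs. Each enzyme has its own pair of large subunits that form the active site, and the enzymes also share several small subunits. TBP is brought to polymerase II promoters in the complex TFIID with one set of TAFs, and to ribosomal RNA promoters in the complex SL1 (selectivity factor 1) with another set.

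Sequences from 2 genes show stretches at which a transcript of another annotated type differs from the protein-coding transcript. The levels of these transcripts are described further on. The first gene is Taf10, a TFIID subunit. Taf10-202, its transcript of highest level, shares the second coding exon with the coding transcript Taf10-203 but enters it from unspliced intron sequence, at position 105743985 of chromosome 7. The first pair of lines gives 15 bases on each side of that point, and the last 15 bases are the same in both.
Taf10-203 first junction: agcggcgcgggccagcttcggtggcagcgg
Taf10-202 same point: ttgattctccttcagcttcggtggcagcgg

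Taf10-201 differs at another intron. Taf10-203, and Taf10-202 as well, join the exons on either side of an 87-base intron at chr7:105743341-105743427 (minus strand, mm10), while Taf10-201 keeps that intron. The line for the spliced form holds 15 bases from each side of the junction, and the capitals in the intron mark its first and last dinucleotides.
Taf10-203 later junction: ttcagacccacgcataattcggctcatctc
Taf10-201 retained intron: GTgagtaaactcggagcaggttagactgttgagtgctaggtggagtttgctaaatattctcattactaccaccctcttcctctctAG

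The second gene is Polr1a, the largest subunit of polymerase I. Both lines begin with the same 15 bases, ending at position 71924697 of chromosome 6 (plus strand). Polr1a-201, the only transcript annotated as protein-coding, runs on into the next coding exon. Polr1a-207 enters an extra exon of 72 bases at chr6:71924968-71925039, in which the annotated reading frame meets a stop codon, in capitals, after 8 coding bases. Polr1a-203, the Polr1a transcript of highest level, starts further along the gene, at position 71961540, and does not reach this point.
Polr1a-201 junction: tttggaagaatgaaggattctttctgaatt
Polr1a-207 junction: tttggaagaatgaagatgtccacTAAaagg

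Nearly the whole machinery was expressed. Of the 63 genes, 61 had at least 1 TPM in each library, which is 96.8%, against 11478 of 22028 protein-coding genes (52.1%). The exceptions were Tbpl2, a TBP relative best known from oocytes, with no counts in any library, and Taf9b, a relative of Taf9, with 1.08, 1.08 and 0.65 TPM from 19, 19 and 12 counts. With no counts, up to 3 could still have been missed, a limit of 0.288, 0.313 and 0.301 CPM (counts per library total) that covers counting error only. The median level over the 63 genes was 40.1 TPM ± 0.817 (SD, n = 3), and over all expressed protein-coding genes it was 19.6 ± 0.719. In all, 49 genes lay above that second median, 12 had a mean of 100 TPM or more, and 6 had a mean under 10 TPM.

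**Figure D1:**
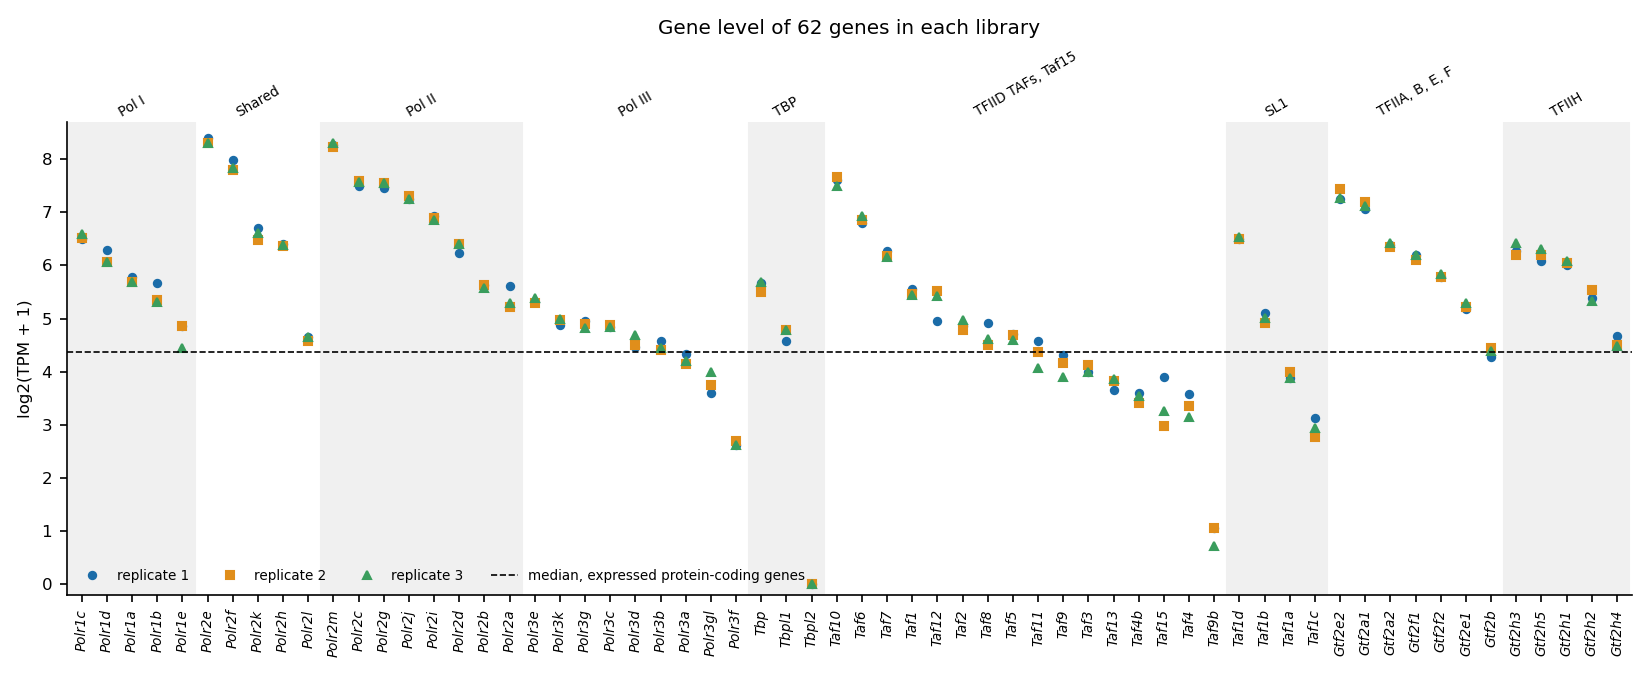
Level of 62 of the genes on the log2(TPM + 1) axis, 1 symbol per library, ordered within each role by mean; the dashed line is the median of the 11478 expressed protein-coding genes. Polymerase II and shared subunits reach the top of the axis, most polymerase III subunits lie near the line, and Tbpl2 is at 0; Polr1c and Polr1d are drawn with polymerase I.

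The 5 subunits shared by all 3 polymerases held both the highest level of the family and 1 of the lower ones. Polr2e had 336, 315 and 316 TPM in replicates 1, 2 and 3, and Polr2f had 254, 221 and 226 TPM. Polr2k followed at 96.0 TPM ± 7.44 (SD, n = 3) and Polr2h at 82.6 ± 0.626. Polr2l, a small zinc-binding subunit that every polymerase needs, had only 24.1, 22.7 and 24.2 TPM. No neighbours in this order overlapped between libraries. The level of Polr2l differed between tables, though it was the lowest of the 5 in both: a second quantification, made from the reads without an alignment file and here called kallisto-style, put it at 43.2 TPM ± 4.73 (SD, n = 3). That ratio of 1.82 was the highest of the 62 genes with counts, ahead of Polr2k (1.5), Polr3k (1.39) and Taf15 (1.22). Polr2l-201 is annotated with 1439 of its 1650 bases after the coding sequence, and 23.2% of it matches a transcript of Usp50 at 99.7% identity. A stretch of 174 bases of Polr2k-202 is identical to the processed pseudogene Gm14567, which had 19.0 TPM ± 8.80 (SD, n = 3) in the alignment-based, RSEM-style table and none in the other. The part of these copies in the differences was not tested.

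The polymerase II subunits had the highest median of the roles with 3 or more genes, 135.7 TPM ± 2.34 (SD, n = 3), and the small subunits stood above the large. The shared subunits had a median of 96.0 TPM ± 7.44, and in the kallisto-style table their median stood above that of polymerase II, 7.18 against 6.79 as log2(TPM + 1). Polr2m, which encodes the polymerase-associated protein Gdown1, had 309, 301 and 314 TPM. Polr2c (186 ± 6.37), a subunit of the assembly platform, and Polr2g (182 ± 6.81), a subunit of the stalk, overlapped between libraries. Polr2j was at 153 TPM ± 3.61, Polr2i at 118 ± 2.69 and Polr2d, the stalk partner of Polr2g, at 80.5 ± 5.55. The large subunits closed the order. Polr2b had 48.8, 48.7 and 46.7 TPM, and Polr2a, the catalytic subunit with the repeated C-terminal tail, had 47.7, 36.2 and 38.0 TPM. Replicate 1 was the high library for Polr2a, and its range overlapped that of Polr2b. Across the 28 polymerase subunits, level and transcript length had a Spearman rho of -0.58, and across the 11478 expressed protein-coding genes rho was -0.28; genes are not independent replicates and TPM is itself computed per length, so this is a description.

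Polymerase I has 3 genes of its own under the rule and shares Polr1c and Polr1d with polymerase III. Polr1a had 53.8, 50.3 and 50.7 TPM, Polr1b, the second-largest subunit, had 50, 39.99 and 38.8, and Polr1e, which joins an initiation-factor-like module, had 28.1, 27.9 and 20.8. The shared pair was higher, Polr1c at 91.7 TPM ± 3.29 (SD, n = 3) and Polr1d at 69.6 ± 6.37. Polr1d-202 carries 381 bases that are identical in the processed pseudogene Gm12751, listed at 16.9 TPM in the RSEM-style table and at 0.183 TPM in the kallisto-style one.

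The polymerase III subunits had a lower median, 25.4 TPM ± 0.629 (SD, n = 3). The catalytic subunit Polr3a had 19.1, 16.6 and 17.4 TPM and the second-largest, Polr3b, had 22.8, 20.4 and 20.8. Polr3e (39.2 ± 1.38) was above them, and Polr3f, a subunit used in initiation, was the lowest at 5.14, 5.50 and 5.18 TPM. Polr3k, Polr3g and Polr3c had 29.8, 28.8 and 27.9 TPM on average, and in that order each overlapped its neighbour between libraries.

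Among the TBP family, Tbp had 50.1, 44.4 and 50.3 TPM and Tbpl1, which encodes a TBP-like factor, had 22.8, 26.6 and 26.7. The 15 TFIID TAFs spread over a wide range, from Taf10 at 191 TPM ± 10.9 (SD, n = 3) to Taf9b. Their median was 23.3 TPM ± 1.73, and 7 of the 14 neighbouring pairs in their order overlapped between libraries. Taf6 (115 ± 5.45), a histone-fold partner of Taf9, and Taf7 (72.9 ± 2.89), a partner of Taf1, came after Taf10. Taf1, the largest TFIID subunit, had 45.9, 43.1 and 42.6 TPM, and Taf3, whose PHD finger binds a histone mark of active promoters, had 14.9, 16.4 and 14.9. Taf15, an RNA-binding protein of the FET family that carries a TAF symbol, had 13.99, 6.89 and 8.58 TPM. In SL1, Taf1d led with 89.7, 89.2 and 91.3 TPM, Taf1b had 31.2 ± 2.21 and Taf1a had 14.1 ± 0.629, and Taf1c was the lowest with 7.73, 5.83 and 6.72 TPM. None of these 4 overlapped with its neighbour.

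All general factors of polymerase II had means above the median expressed gene, Gtf2b only barely. Gtf2b lay at that median, with a mean of 19.67 TPM against 19.6, and was below it in replicate 1 (18.4 against 20.4 TPM). Gtf2e2 and Gtf2a1 led, with 150, 173 and 153 TPM for the first and 133, 146 and 138 TPM for the second. Gtf2b, the single subunit of TFIIB, which links TBP to the polymerase, was the lowest of all 12 with 18.4, 20.7 and 19.8 TPM. The 5 Gtf2h genes of TFIIH had a median of 65.1 TPM ± 2.10 (SD, n = 3). They ran from Gtf2h3 (76.6, 72.6 and 84.3 TPM) and Gtf2h5 (66.7, 72.0 and 78.1), whose ranges overlapped, down to Gtf2h4 (24.5, 21.6 and 21.3).

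Pairs of genes with matching roles were compared within libraries as the difference in log2(TPM + 1). With 3 libraries the exact two-sided sign-flip test cannot go below p = 0.25, so no pair could pass, and for 13 of 14 pairs all 3 libraries had the same sign. Each of those 13 gave an exact sign-flip p of 0.25, or 0.269 after Benjamini-Hochberg adjustment over the 14 pairs. The exception was Polr2b minus Polr1b, at 0.17 ± 0.17 (SD, n = 3) with 2 of 3 libraries above 0 and an exact sign-flip p of 0.5.

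Polr3g and Polr3gl encode alternative forms of a polymerase III subunit, of which Polr3g is the form known from pluripotent cells. Polr3g had 30.1, 28.9 and 27.5 TPM and Polr3gl had 11.1, 12.5 and 14.9, a difference of 1.12 ± 0.26 on the log2(TPM + 1) scale (SD, n = 3). The ranges lay apart, and the difference was smallest in replicate 3. Taf4 and Taf4b encode alternative TFIID subunits, and their levels were close: 10.99, 9.29 and 7.90 TPM for Taf4 against 11.2, 9.70 and 10.7 for Taf4b. Their difference of -0.16 ± 0.21 was smaller than its own spread. Taf9 exceeded Taf9b by 3.18 ± 0.08 and Tbp exceeded Tbpl1 by 0.90 ± 0.19 on the same scale. No fold is given against Tbpl2, which had no counts.

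Between the enzymes, the catalytic subunit of polymerase II exceeded that of polymerase III by 1.15 ± 0.11 and the second-largest by 1.14 ± 0.08 on the log2(TPM + 1) scale (SD, n = 3). At the gene level, which adds transcripts of separate Polr1a stretches, Polr2a was below Polr1a in all 3 libraries, by -0.35 ± 0.16. Counting only protein-coding transcripts turned the sign of that pair, to 1.68 ± 0.06 in favour of Polr2a (23.1% of the Polr1a level lay on its coding transcript). Partners within one factor were also unequal: Gtf2e2 exceeded Gtf2e1 (35.3, 36.0 and 38.2 TPM), Gtf2e1 minus Gtf2e2 being -2.09 ± 0.13, and Polr2d minus Polr2g was -1.17 ± 0.05. TFIIF and TFIIA were more even, with Gtf2f1 minus Gtf2f2 at 0.37 ± 0.06 and Gtf2a1 minus Gtf2a2 at 0.75 ± 0.10.

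**Figure D2:**
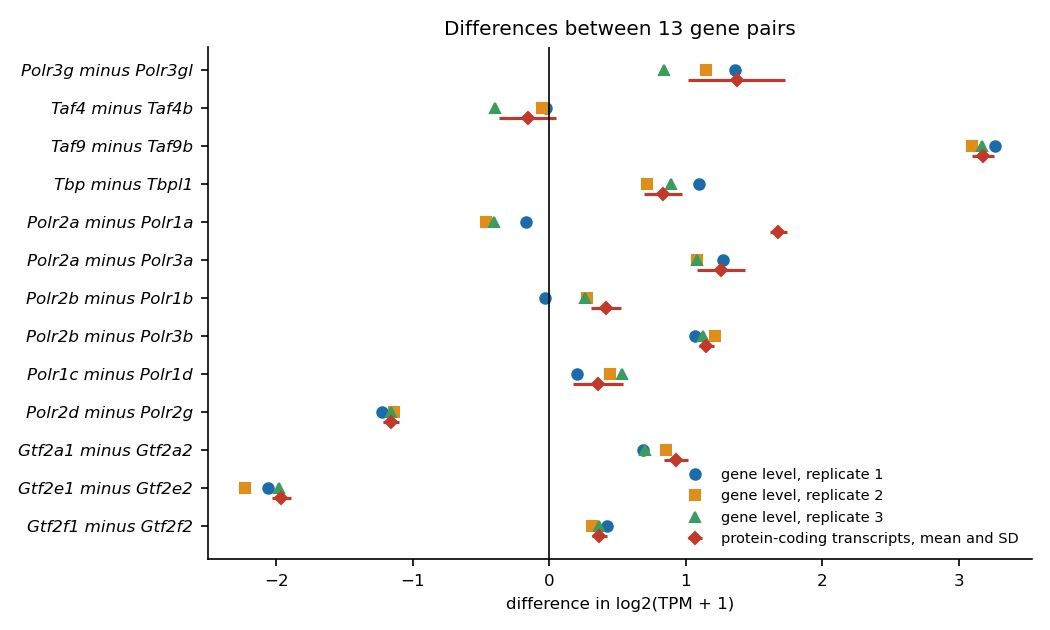
Differences in log2(TPM + 1) for 13 gene pairs: circles, squares and triangles are the 3 libraries at the gene level, and red diamonds with bars are the mean and SD over protein-coding transcripts only. Of the 13, Polr2a minus Polr1a alone changes sign of its mean, from -0.35 to 1.68.

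For most of the 61 expressed genes the coding transcripts carried the level. The median share of TPM on transcripts annotated as protein-coding was 97.9%, against 97.1% over all expressed protein-coding genes, and 41 of 61 (67.2%) had over 90% against 67.8% of all. In 6 of 61 (9.84%) the transcript with most TPM was not a protein-coding one, among them Polr1a, Taf1, Taf10, Taf13 and Taf1d, against 6.77% of expressed protein-coding genes. These shares were near those of other genes.

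Taf10 had the lowest coding share. Of its 191 TPM, Taf10-202 and Taf10-201, both annotated as retained-intron transcripts of 601 and 678 bases, took 62.2% ± 2.70 and 33.3% ± 2.63 (SD, n = 3). The only coding transcript, Taf10-203, had 9.05, 9.16 and 8.12 TPM, or 4.58% ± 0.077. Measured in reads the picture is less extreme, since Taf10-203 is annotated with 4281 bases and held 282, 273 and 250 estimated counts, 31.6% ± 0.255 of the gene's counts. Of those 4281 bases, 3584 follow the coding sequence, and 49.2% lie under exons of Ilk on the opposite strand (43.6 TPM ± 1.48, SD, n = 3). Taf10-202 also matches the processed pseudogene Gm4799 over 71.2% of its length at 98.6% identity, and that copy had 1.96 TPM ± 0.608. The kallisto-style table gave nearly the same shares for the 3 Taf10 transcripts, 59.2%, 34.4% and 5.56%. Both tables rest on the same libraries and the same annotated transcripts, so this likeness is not independent evidence for the split.

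Polr1a was split over the length of the gene. Polr1a-203 and Polr1a-207, both annotated as targets of nonsense-mediated decay, took 34.4% ± 1.75 and 29.3% ± 3.21 of TPM (SD, n = 3). Their exons do not overlap, since Polr1a-207 ends at position 71955150 and Polr1a-203 starts at 71961540. The gene level adds both. The full-length coding transcript Polr1a-201, of 34 exons and 9216 bases, had 14.9, 10.2 and 10.9 TPM. Its share was 23.1% ± 4.00 of TPM and 42.6% ± 5.05 of counts, and replicate 1 was again the highest library. In the kallisto-style table Polr1a-201 had 5.26 TPM ± 1.04 (SD, n = 3), lower by 1.05 on the log2(TPM + 1) scale (limma, adjusted p = 0.00331).

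Taf13, Taf1 and Taf1d had smaller or less stable splits. Taf13, a histone-fold TAF, had 3.26 TPM ± 1.23 (SD, n = 3) on its coding transcript Taf13-204, and that transcript held 70, 63 and 31 counts. Taf1 had 15.2, 12.5 and 17.2 TPM on coding transcripts out of 43.8 on average. Its first-ranked transcript, the retained-intron Taf1-203, had 16.0 TPM ± 2.24 in the RSEM-style table and 4.13 ± 1.97 in the kallisto-style one. Taf1d had 42.7, 49.1 and 43.5 TPM on coding transcripts, 50.1% of its level, and its first-ranked transcript was Taf1d-204, annotated for decay, at 24.5 TPM ± 2.33.

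**Figure D3:**
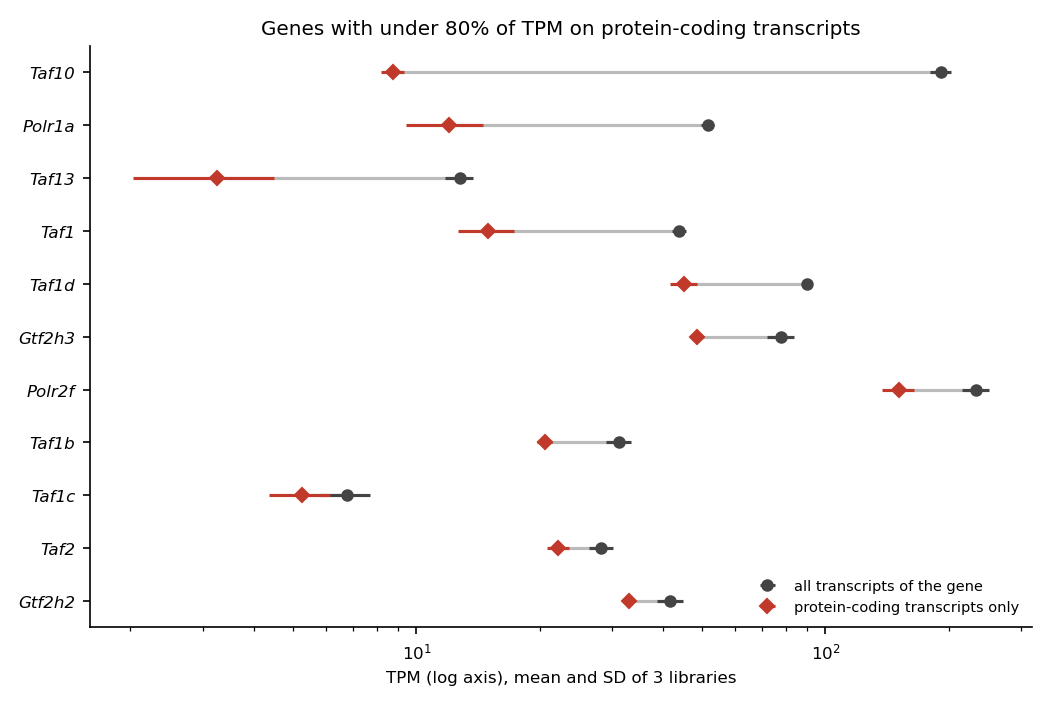
Level of 11 expressed genes with under 80% of TPM on protein-coding transcripts, as mean and SD of 3 libraries on a log axis, for all transcripts (grey circles) and protein-coding transcripts only (red diamonds). The widest gap is at Taf10, from 191 to 8.78 TPM.

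By coding transcripts alone the order of the family changed at these genes and also near the top, below Polr2e and Polr2m. Polr2e (310.5 TPM ± 9.14, SD, n = 3), Polr2m (307 ± 5.98), Polr2c (182 ± 6.93) and Polr2g (180.5 ± 5.27) took ranks 1 to 4. Polr2f, above Polr2c and Polr2g at the gene level with 233.7 TPM, had 151.5 ± 13.6 on coding transcripts and rank 6. Taf10 went to rank 58. The median of the 63 genes became 28.5 TPM ± 0.0737 and that of expressed protein-coding genes 16.4 ± 0.538.

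Taf9 needs a caution of its own. Its transcript Taf9-201 lies within exons of Ak6, an adenylate kinase gene on the same strand, over 98.5% of its 1230 bases, and Ak6 had 189 TPM ± 7.01 (SD, n = 3). It also matches the processed pseudogene Gm12372 over 61.8% of its length at 98.4% identity, and that copy was listed at 26.8 TPM ± 2.52. Taf9 had 19.0, 16.9 and 13.9 TPM, and the part of the division of reads between these genes in that level was not tested. Of the 62 genes with counts, 19 had a first-ranked transcript that overlapped exons of another gene, 18 of them on the opposite strand, and in Taf9 the overlap was over 50%. Near copies elsewhere in the annotation, with at least 95% identity over at least 100 bases and 20% of the transcript, were found for 9 of 62: Polr1d, Polr2c, Polr2h, Polr2k, Polr2l, Taf10, Taf13, Taf1d and Taf9. The level of these 9 genes is uncertain to the extent that reads were shared with the copies. Among the copies the pseudogene Gm7511, which is 98.0% identical to Polr2h over 445 bases, had the highest level, 34.6 TPM ± 3.28 in the RSEM-style and 8.21 in the kallisto-style table.

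The levels of single transcripts were compared between the 2 tables with limma on the difference in log2(TPM + 1), calling an adjusted p under 0.05 and a difference of at least 1. Both tables come from the same 3 libraries, so this is a comparison of quantifications. Of 159 transcripts of these genes, 16 were called (10.1%), 9 higher in the kallisto-style and 7 higher in the RSEM-style table. Over all 28903 transcripts tested the called share was 18.9%, with 12.1% higher in the kallisto-style and 6.78% higher in the RSEM-style table. Protein-coding transcripts of the family were called in 7 of 110 cases and other transcripts in 9 of 49, which is 6.36% and 18.4%, against 10.3% and 33.7% over all genes.

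Polr3k-202, a retained-intron transcript of a zinc-binding polymerase III subunit, had the largest excess in the kallisto-style table. It had 21.2 TPM ± 0.770 there and 1.89 ± 1.81 in the RSEM-style table (SD, n = 3), a difference of 3.19 (limma, adjusted p = 0.0142). Polr2b-203 (2.45), Polr2c-202 (2.22), Gtf2h3-203 (2.13) and Taf1d-210 (1.30) followed on the same log2 scale. The remaining 4 calls in that direction, Taf6-205, Gtf2h2-207, Polr3e-203 and Polr2c-207, differed by 1.05 to 1.21. In the other direction Polr2h-203 had 11.3, 4.81 and 14.9 TPM in the RSEM-style table and none in the kallisto-style one in any library. Taf1d-209 (-1.95), Taf1-203 (-1.80), Polr2f-203 (-1.41) and Polr2i-202 (-1.31) came next, and Taf1-201 (-1.06, adjusted p = 0.0229 by limma) and Polr1a-201 completed the 7. Polr2f-203, a short transcript annotated for decay, had 81.1 TPM ± 4.24 against 30.1 ± 5.58.

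The 2 tables named the same first-ranked transcript for 52 of the 56 genes with several transcripts, 92.9%, against 87.9% of 10482 genes. The 4 genes that differed were Polr1e, Polr3k, Taf1 and Taf15. For Polr3k the RSEM-style table put 93.8% ± 5.95 of TPM on the coding Polr3k-201, and the kallisto-style table put 51.1% ± 0.747 on Polr3k-202 (SD, n = 3). For Taf15 both candidates were coding, with Taf15-201 at 58.9% in the first table and Taf15-203 at 52.8% in the second. Polr1e went from Polr1e-202 (36.9%) to Polr1e-201 (36.5%), and Taf1 from Taf1-203 (36.3%) to the coding Taf1-202 (43.8%).

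Between libraries the median coefficient of variation of TPM was 5.85% over the 61 expressed genes and 3.86% over the 28 polymerase subunits. Over expressed protein-coding genes it was 7.88%. The sets were not matched for level, and the family had the higher median level (40.05 against 19.6 TPM), so these coefficients are a description only. In edgeR's quasi-likelihood fit none of the 62 genes with enough counts varied more than the trend at an adjusted p under 0.05, and over all 13391 genes 0.0373% did. limma-voom likewise called none. Taf15, Polr2a and Taf12 passed an unadjusted p of 0.05 in edgeR, 3 of 62 against a background of 4.53%, and limma-voom also gave 3. Their adjusted p in edgeR was 0.613, 0.908 and 0.988.

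A chi-square test against counting noise alone, with Benjamini-Hochberg adjustment over all genes, called 10 of 62 (16.1%): Gtf2a1, Gtf2e2, Gtf2h5, Polr1a, Polr2a, Polr2c, Taf12, Taf15, Taf4 and Taf8. Over all genes tested 12.4% passed. Polr2a had 228, 182 and 186 CPM in replicates 1, 2 and 3 (chi-square adjusted p = 7.44e-13), and Taf15 had 15.9, 8.42 and 9.28 CPM (8.64e-06). Gtf2a1 went the other way with 569, 641 and 618 CPM (1.09e-08), as did Taf12 with 37.0, 48.5 and 47.5 CPM (0.00154). Without replicate 1 none of the 62 was called and 0.2% of all genes were. Without replicate 2 there were 9 (14.5%, against 10.8% of all genes) and without replicate 3 there were 8 (12.9% against 10.9%).

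Replicate 1 tended to be higher in long transcripts. Over the 52 genes of at least 20 CPM, transcript length and the log2 ratio of replicate 1 to the mean of the other two had a Spearman rho of 0.319, and over all 7580 such genes rho was 0.454. For replicate 2 over replicate 3 these were -0.175 and -0.0968. Genes in these correlations share their libraries and are not replicates. Polr2a (0.31), Taf8 (0.30), Taf4 (0.29) and Polr1a (0.15) lay above 0, while the long Gtf2a1 (-0.15) lay below it. The part of length in the calls was not tested.

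**Figure D4:**
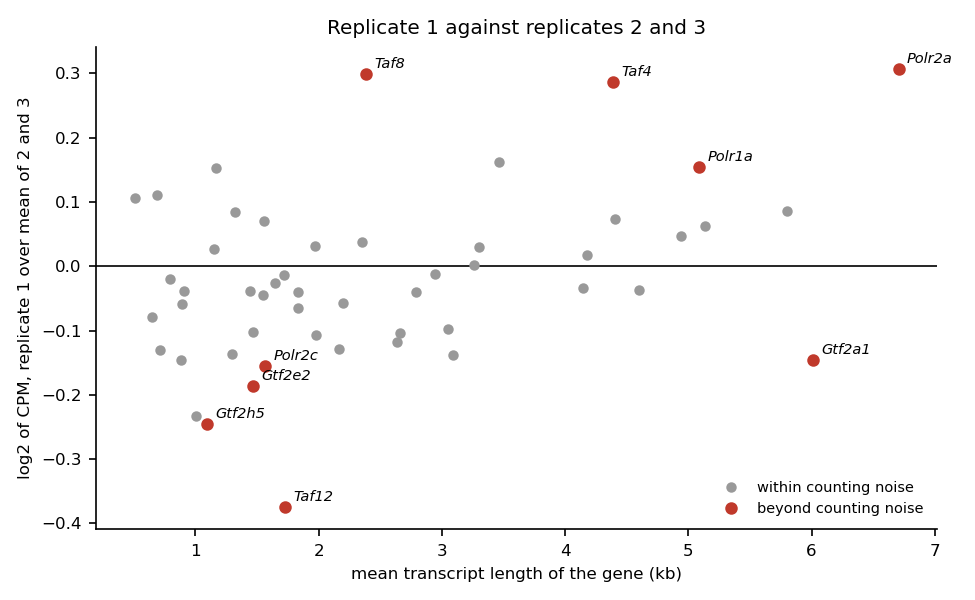
Log2 ratio of CPM in replicate 1 to the mean of replicates 2 and 3 against mean transcript length, for 51 genes of at least 20 CPM. The 9 labelled red genes varied beyond counting noise, 4 of them higher and 5 lower in replicate 1, and Taf15 (0.85) is not drawn because it was under 20 CPM.

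The promoters were read for shared letters in the RefSeq windows of 250 bases before to 50 bases after each start site (GRCm38.p6). Of the 63 genes 53 had a window, and a gene was counted when at least 1 of its windows held the letters on either strand. The letters CCGGAAG, the core of ETS factor sites, were in 20 of 53 genes (37.7%), against 13.4% of 16522 protein-coding genes and 21.6% of the 9079 expressed ones with a window. By window, the shares were 33.3% of 63 and 11.9% of 20150. In 18 of the 20 genes the nearest match lay within 100 bases of a start site. Matches from 8 roles are shown, each the nearest to the start in its role, with the match in capitals on the gene's own strand, where CTTCCGG is the same letters read from the other strand.
Polr1e: ctagaatgtcaCTTCCGGtttttgagtccg
Polr2f: gccgctgcttcCCGGAAGtaactgcgcctg
Polr2j: ggctgagaaatCCGGAAGtggtcgcgcttc
Polr3b: cggctcggtcaCTTCCGGgttcctccgcag
Taf1: ctttttttcaaCTTCCGGtagcctctggtt
Taf1b: ccccgtctctcCCGGAAGcggcgcttgctg
Tbpl1: agcagcgagaaCCGGAAGtgagtggctagc
Gtf2a2: tcgcgtgagcaCTTCCGGgtcactggcaca

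These lie at chr4:45018623-45018652, chr15:79141297-79141326, chr5:136116661-136116690, chr10:84622276-84622305, chrX:101532733-101532762, chr12:24498571-24498600, chr10:22731424-22731453 and chr9:70012544-70012573, in that order. Other letters are given as the share of the 53 genes against that of the expressed genes. GGGCGG, a GC box, was in 67.9% of the 53 against 70.7%. The letters of NRF1 sites were in 15.1% against 15.9%, and those of YY1 sites in 3.77% against 2.56%. TATAAA, the letters bound by TBP itself, was in 15.1% against 8.11% (14.3% of all 16522 genes), and CCAAT in 32.1% against 44.0%. A match is a description of letters, and no binding was measured in these libraries.

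Other genes of the transcription machinery, from lists of partners under other symbols, were expressed in 67 of 68 cases. Outside the rule, the polymerase I subunits and factors were all expressed (6 of 6), from Rrn3, the factor that recruits polymerase I, at 128 TPM to Ttf1, a termination factor, at 10.2. Of a mixed list of TAF-like genes, a TFIIA relative and other genes linked to TBP, 6 of 7 were expressed. Drap1, which is not a TAF, was the highest at 124 TPM, and the TFIIA relative Gtf2a1l was the exception at 0.633. The TAF-like Taf5l, Taf6l and Taf7l had 73.9, 22.6 and 1.93 TPM. The kinase and helicase genes of TFIIH (5 of 5) ran from Ccnh at 101 TPM to Ercc3 at 11.9. Their list median of 27.6 TPM was below that of the 5 Gtf2h genes, a division made by symbol. Polymerase III factors (17 of 17) ran from the repressor Maf1 at 97.9 TPM to the TFIIIB subunit Bdp1 at 6.70, with a median of 26.8. Elongation and pausing genes (19 of 19) ran from Ssrp1, a histone chaperone subunit, at 208 TPM to Hexim1, an inhibitor of the elongation kinase, at 2.28. Assembly and phosphatase genes (10 of 10) ran from Ssu72 at 166 TPM to Gpn2 at 17.3, and mitochondrial polymerase genes (4 of 4) from Tfam at 44.4 TPM to Tfb1m at 8.57.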

How the data were processed

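Estimated counts (expected counts, not normalized) and TPM values were deposited by the authors in 1 gene table and 2 transcript tables per library, on mm10 (GENCODE M21), per the labels and the file headers. One transcript table and the gene table were made from transcriptome alignments and have RSEM's columns; the other has kallisto's columns. Not given in the sources used here are the strand option, the aligner and the quantifiers with their versions. TPM was scaled over all features by the authors, spike-ins included. Members and lists were chosen with earlier results of these data known. Of the 63 genes, 1 is counted in totals and medians but not reported here by itself; those given per library were the catalytic subunits, the highest and lowest of each role, paired genes, genes under 1 TPM, genes called by a test and genes whose main transcript was not coding. Spread was tested on rounded counts with edgeR 4.0.16 (filterByExpr, TMM, intercept-only quasi-likelihood fit, Benjamini-Hochberg at 0.05) and a chi-square test, and transcripts (at least 1 TPM in 1 table in each library) with limma 3.58.1 in R 4.3.3, with a pseudocount of 1. Scripts were tested on simulated data. Near copies were sought with BLAST 2.17.0.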

Additional observations from a re-analysis of the deposited data

How the results depend on the processing

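Alternatives gave 169 values for 25 results. Judged by 1 SD between libraries for role medians, by 1.5 times for counts and by sign alone for gene pairs, 140 stayed, 28 moved and 1 reversed. Polr2a minus Polr1a reversed to 1.68 with protein-coding transcripts only, an alternative chosen after seeing the data. Of the pairs that kept their sign, Taf9 minus Taf9b was 4.03 with a pseudocount of 0.1, and with the kallisto-style table Tbp minus Tbpl1 was 0.49 and Polr1c minus Polr1d was 0.16. Polr2b minus Polr1b ranged from 0.11 to 0.41, and Taf4 minus Taf4b was -0.04 without replicate 3. Role medians on the log2(TPM + 1) scale gave 22 of the moves. With the kallisto-style table they were 5.05 for polymerase I (5.45 as reported), 7.18 for the shared subunits (6.60), 6.79 for polymerase II (7.08), 4.39 for polymerase III (4.72), 4.30 for TFIID TAFs (4.60), 4.23 for SL1 TAFs (4.46) and 5.78 for TFIIH (6.05), so that the shared subunits then stood above polymerase II. Rescaled over nuclear protein-coding genes they were 5.70, 6.85, 7.34, 4.97, 4.85, 4.71 and 6.30 in the same order. That rescaling multiplies every gene of a library by the same factor, so these medians rose together by construction. With protein-coding transcripts only, also added after seeing the data, they were 4.43 for polymerase I, 6.98 for polymerase II, 4.43 for polymerase III, 4.15 for TFIID TAFs, 4.18 for SL1 TAFs and 5.63 for TFIIH. A pseudocount of 0.1 gave 4.67 for polymerase III and 4.40 for SL1 TAFs. The causes of the moves other than those under rescaling were not tested.

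Genes beyond counting noise numbered 26 with ERCC scaling (41.9%, against 34.7% of all genes), 16 with kallisto-style counts, added after seeing the data (25.8% against 17.6%), and 0 to 9 when a library was left out, where replicate 1 gave the 0. Transcripts called between the tables numbered 10 of 90 at a minimum of 5 TPM (11.1%, against 18.5% of all transcripts), 84 of 159 with no minimum difference (52.8% against 61.6%) and 5 of 159 with a minimum difference of 2 (3.14% against 7.85%); leaving out a library gave 16 to 21. No paired analysis was possible because the 3 libraries form 1 group. The depth of 9575747 to 10425623 counts a library left Taf9b with under 20 counts and Taf13-204 with 31 to 70, which limits the precision of their levels. Leaving a library out of the sign-flip test leaves 2 values, and the smallest p is then 0.5.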
